A study of Canis lupus familiaris with 22 samples.

Results

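Matricellular proteins are secreted into the extracellular matrix, where they regulate how cells attach, move and respond to growth factors. Expression of 10 genes was examined in canine invasive urothelial carcinoma (iUC) and normal canine bladder: TNC, THBS1, THBS2, THBS4, SPARC, SPARCL1, POSTN, SPP1, FN1 and VCAN. They are called matricellular genes below, although FN1 and VCAN also encode structural parts of the matrix. A probe set was taken for a gene where the annotation of the array named that gene and no other. This gave 20 of the 42924 probe sets analysed, and all 10 genes had at least 1 of them, among 15115 genes on the array. TNC, THBS4 and POSTN had 1 probe set each, and the other genes had 2 to 4.

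The iUC group held 18 tumor samples from pet dogs with naturally-occurring high grade disease, taken at cystoscopy before therapy. The normal bladder group held 4 samples from healthy dogs of matching age without tumors. Each sample was a different dog and was hybridized to its own Affymetrix Canine 2.0 array from 5 µg of total RNA. The values are on a log2 scale, and each probe set was set to 0 at its median over the 22 arrays. A value therefore measures distance from the center of the series, and levels cannot be compared between genes. The sample labels end in 1 of 2 ways, without saying what the ending stands for, and normal bladder replicate 1 shares its ending with the tumors while replicates 2 to 4 carry the other.

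Tenascin C, encoded by TNC, is an adhesion-modulating glycoprotein made in embryonic tissue, in wounds and by smooth muscle and stromal cells. The thrombospondins encoded by THBS1 and THBS2 bind cell surface receptors such as CD36 and CD47. Thrombospondin 1 can release TGF-beta from its latent form. SPARC binds collagen and calcium, and SPARCL1 (hevin) is its relative. Periostin (POSTN), fibronectin (FN1) and the large proteoglycan versican (VCAN) are deposited mainly by fibroblasts and smooth muscle, whereas osteopontin (SPP1) is secreted by macrophages and epithelial cells. In the bladder wall, the urothelium lies on a lamina propria of fibroblasts and vessels, with the detrusor smooth muscle beneath.

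The tissue labels were set against marker genes of cell types. Of 13 measured urothelium markers, 8 were higher and none was lower in iUC. The urothelium mean lay between -3.56 and -0.32 in the normal samples and between -1.29 and 0.78 in iUC, so the groups overlapped. Of 14 smooth muscle markers, 12 were lower in iUC. Their mean lay between 3.10 and 4.74 in the normal samples and between -0.67 and 1.41 in the iUC samples. Of 12 fibroblast and matrix markers, 10 were lower and 1 was higher, with means of 1.08 to 2.51 in normal bladder and -1.01 to 0.86 in iUC. Macrophage markers had 4 of 13 lower, and endothelial markers had 3 of 9 lower. In bulk tissue, fewer cells of a type and less RNA per cell cannot be told apart, and the part of tissue composition in the differences reported here was not tested. The iUC arrays also fell into branches of 11 and 7 when clustered on the probe sets of all other genes. The mean of 17 Tag control probe sets, which match no dog transcript, was -0.13 to 0.13 in the larger branch and 0.28 to 0.46 in the smaller branch. Among normal samples, replicates 3 and 4 were the most alike (r = 0.934 over probe sets, against 0.426 to 0.761 for the other pairs).

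Most of the matricellular genes were expressed at lower levels in the tumors than in the normal samples. Among the 10, 7 were lower in iUC (TNC, THBS2, SPARC, SPARCL1, POSTN, FN1 and VCAN), none was higher, and THBS1, THBS4 and SPP1 did not pass the test. A gene was called when its fold change was at least 2 and its Benjamini-Hochberg adjusted p was at most 0.05. By the same rule, 8.64% of all genes were lower and 3.68% were higher. The median log2 difference, iUC minus normal, was -1.99 over the 10 genes and 0.08 over all genes. For TNC, THBS2 and SPARCL1, every one of the 18 iUC samples lay below all 4 normal samples, a pattern found in 4.47% of all genes. After quantile normalization of the arrays 3 of the 10 were called, TNC, THBS2 and SPARCL1. A block for the label ending, which sets the tumors against normal bladder replicate 1 alone, left 3 called, TNC, THBS2 and VCAN.

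**Figure D1:**
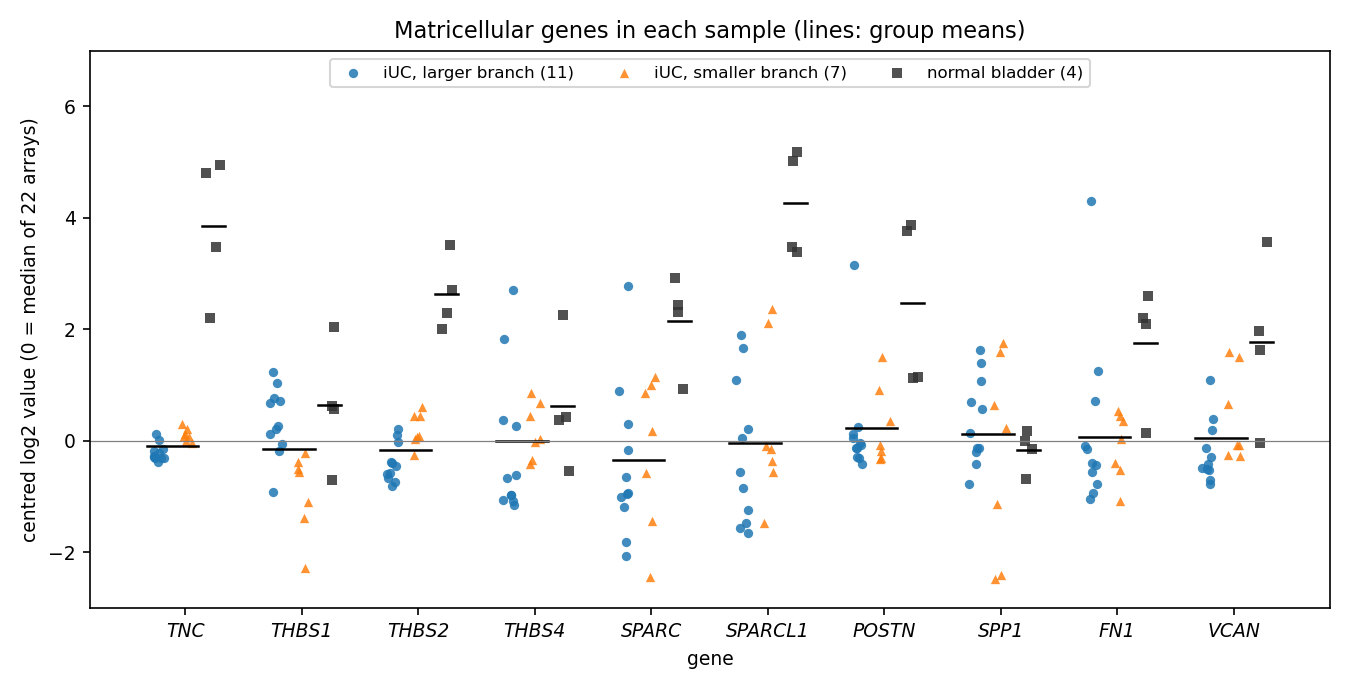
Centered log2 value (y axis) of each matricellular gene (x axis) in each of the 22 samples. Circles are iUC samples of the larger branch, triangles iUC samples of the smaller branch, squares normal bladder, and lines the means of the 18 iUC and 4 normal samples. TNC, THBS2 and SPARCL1 show no overlap between the groups, and SPP1 overlaps fully.

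Of the 10 genes, TNC varied least among the tumors. Its centered log2 value was 3.48, 2.20, 4.81 and 4.95 in normal bladder replicates 1 to 4. In the iUC samples it ran from -0.38 to 0.30, with a median of -0.09. All normal samples stood well above all tumors, and the tumors hardly differed from each other. Centered values hold no level, so whether the TNC signal in tumors was near the limit of detection cannot be told. TNC fell 15.4-fold (log2 difference -3.95, standard error 0.28, adjusted p = 1.42e-09 from limma). The model took the same variance for both groups, although the standard deviation of TNC over the normal samples was 1.29. The standard error may therefore understate the uncertainty from the normal samples. The standard deviation over the iUC samples was 0.206, smaller than the median of 0.335 over all genes, while every other matricellular gene varied more than that median. The larger branch had TNC values of -0.38 to 0.12 and the smaller branch -0.03 to 0.30, so the branches overlapped. The mean of the Tag controls was higher in the smaller branch too, and its part in this small shift was not tested.

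Of the thrombospondins, THBS2 was called lower and THBS1 and THBS4 were not. THBS2, an inhibitor of new vessel growth that also shapes collagen fibrils, had values of 3.51, 2.30, 2.70 and 2.01 in normal bladder replicates 1 to 4. The iUC samples ran from -0.81 to 0.61, with a median of -0.14. Again no tumor reached any normal sample. THBS2 fell 6.93-fold (log2 difference -2.79, standard error 0.26, adjusted p = 5.11e-08 from limma). The standard deviation of THBS2 was 0.65 over the normal and 0.44 over the iUC samples, so this standard error may be too small as well.

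THBS1, the thrombospondin of platelets, wounds and many stromal cells, was 2.05, -0.70, 0.62 and 0.57 in normal bladder replicates 1 to 4. In iUC it ran from -2.28 to 1.23, with a median of -0.12. Normal bladder replicate 1 lay above every tumor, replicate 2 lay below most tumors, and 4 tumors lay below all normal samples, so the groups overlapped in part. The log2 difference was -0.78 (95% interval -1.81 to 0.25, adjusted p = 0.212 from limma), and it moved to -0.31 without normal bladder replicate 1 and to -1.22 without replicate 2. THBS4, a pentameric member found in muscle, tendon and vessel wall, was -0.55, 0.42, 0.37 and 2.26 in normal bladder replicates 1 to 4 and -1.15 to 2.70 in iUC, with a median of -0.19. Its log2 difference was -0.63 (95% interval -1.81 to 0.54, adjusted p = 0.372 from limma), and 1 tumor, iUC replicate 12, exceeded all normal samples. Without normal bladder replicate 4 the THBS4 difference was -0.09, and without replicate 1 it was -1.03. The intervals of THBS1 and THBS4 leave room for falls of more than 2-fold.

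Genes of 1 family were also set against each other within each array. These pairs were chosen after the values had been seen, so their differences are given as a description, without p values. THBS1 minus THBS2 was 0.02 ± 1.12 (SD, n = 18) in iUC and -1.996 ± 0.729 (SD, n = 4) in normal bladder. The group difference was 2.02 on the log2 scale. THBS2 minus THBS4 differed between the groups by -2.16, and THBS1 minus THBS4 by -0.14. The gap between THBS1 and THBS2 depended on the probe set, since 1 probe set of THBS1 had a log2 difference of -1.60 and 1 of THBS2 had -1.99.

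Both SPARC genes fell, SPARCL1 with the larger log2 difference. SPARCL1, an anti-adhesive glycoprotein of vessels and smooth muscle, was 3.48, 3.39, 5.01 and 5.19 in normal bladder replicates 1 to 4. The iUC samples ran from -1.66 to 2.36, with a median of -0.25, and none reached a normal sample. The fall was 19.8-fold (log2 difference -4.30, standard error 0.68, adjusted p = 6.43e-05 from limma), the largest of the 10 genes. SPARC, the collagen-binding founder of the family, was 2.92, 0.93, 2.43 and 2.31 in the normal samples and -2.45 to 2.77 in iUC, with a median of -0.62. Of the 18 tumors, 15 lay below all normal samples, and iUC replicate 12 lay above 3 of the 4. SPARC fell 5.61-fold (log2 difference -2.49, standard error 0.67, adjusted p = 0.00753 from limma). After quantile normalization of the arrays, SPARC was no longer called (log2 difference -1.75, adjusted p = 0.109). SPARC minus SPARCL1 was -0.31 ± 0.82 (SD, n = 18) in iUC and -2.12 ± 1.05 (SD, n = 4) in normal bladder, a group difference of 1.82. It is given without a p value too, because the pair was chosen after its values were seen.

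POSTN, FN1 and VCAN fell by less, with 1 or more tumors within the range of normal bladder. POSTN, a fasciclin-domain protein of collagen-rich tissue, was 1.12 and 1.14 in normal bladder replicates 1 and 2 but 3.76 and 3.87 in replicates 3 and 4. In iUC it ran from -0.42 to 3.15, with a median of -0.08, and 16 tumors lay below all normal samples. The exceptions were iUC replicates 12 (3.15) and 13 (1.51). POSTN fell 4.76-fold (log2 difference -2.25, standard error 0.53, adjusted p = 0.00288 from limma). After quantile normalization the difference was -1.29 (adjusted p = 0.0777).

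VCAN, the hyaluronan-binding proteoglycan of loose connective tissue, was 3.57 in normal bladder replicate 1, -0.05 in replicate 2, 1.97 in replicate 3 and 1.63 in replicate 4. The iUC samples ran from -0.77 to 1.58, with a median of -0.19. Replicate 2 lay among the tumors, and replicate 1 lay far above the others. VCAN fell 3.32-fold (log2 difference -1.73, standard error 0.46, adjusted p = 0.00722 from limma). Without normal bladder replicate 1 the log2 difference was -1.13 (adjusted p = 0.0561), and after quantile normalization it was -1.09 (adjusted p = 0.155).

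FN1, the fibronectin that forms adhesive fibrils in wounds and stroma, was 2.09, 0.13, 2.60 and 2.21 in normal bladder replicates 1 to 4. In iUC it ran from -1.08 to 4.31, with a median of -0.27. The value of 4.31 belonged to iUC replicate 12 and exceeded every normal sample, while the next tumor reached 1.25. FN1 fell 3.22-fold (log2 difference -1.69, standard error 0.64, adjusted p = 0.0453 from limma). This call lay at the threshold and was lost under 25 of 33 alternatives. It was lost without normal bladder replicate 1, 3 or 4 (adjusted p = 0.0965, 0.162 and 0.136) and without any 1 of 15 iUC samples (adjusted p of 0.0504 to 0.0574). Without iUC replicate 12 the log2 difference was -1.94 (adjusted p = 0.000969).

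SPP1, the secreted phosphoprotein of bone matrix and macrophages, was not called in either direction. It was 0.18, -0.01, -0.15 and -0.68 in normal bladder replicates 1 to 4. The iUC samples ran from -2.49 to 1.75, with a median of 0.19, and 9 of the 18 lay above and 4 below all normal samples. The tumors thus spread to both sides of a narrow normal range. The log2 difference was 0.28 (95% interval -0.99 to 1.55, adjusted p = 0.730 from limma). The standard deviation was 1.25 among tumors and 0.368 among normal samples.

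**Figure D2:**
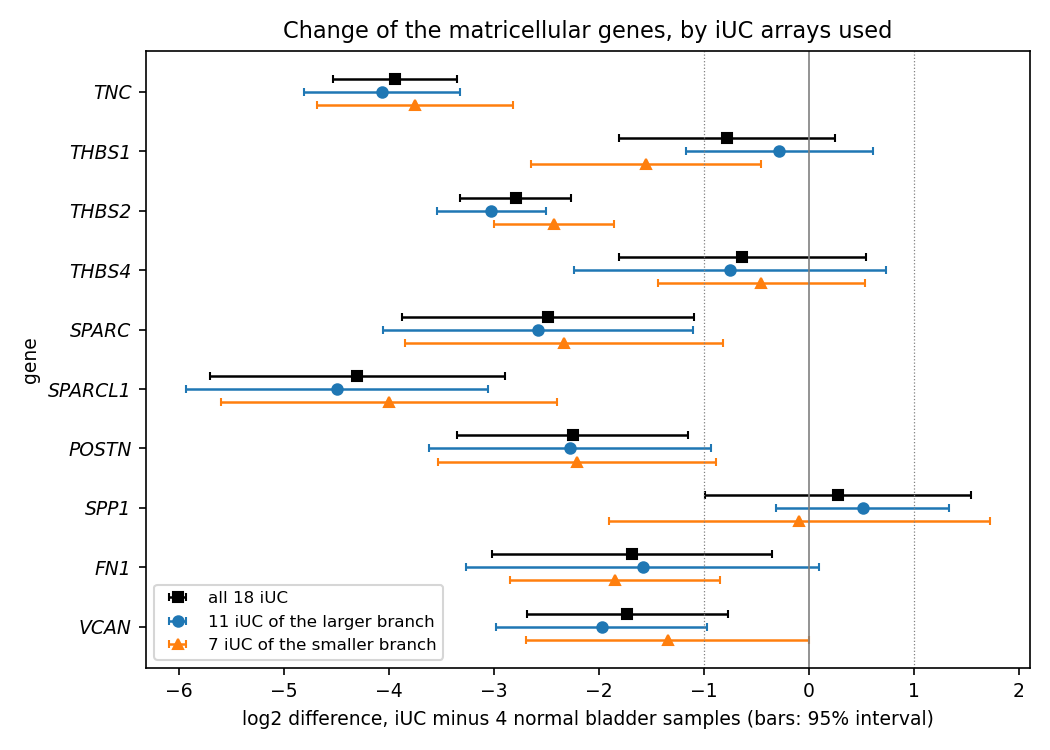
Log2 difference (x axis) between iUC and the 4 normal bladder samples for each matricellular gene (y axis), with 95% intervals, for all 18 iUC samples and for each branch of iUC arrays alone. Dotted lines mark a fold change of 2. TNC, THBS2 and SPARCL1 lie farthest from 0 in all 3 fits, and THBS1 lies beyond the 2-fold line with the smaller branch only.

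The falls were present with either branch of tumors, although the branches gave different calls for 3 genes. Both fits used the same normal samples, so they are not independent of each other. With the 11 iUC samples of the larger branch, 6 of the 10 genes were lower, where 5.96% of all genes were. With the 7 iUC samples of the smaller branch, 7 of the 10 were lower, where 17.4% of all genes were. TNC, THBS2, SPARC, SPARCL1 and POSTN were lower with both. THBS1 was lower with the smaller branch (log2 difference -1.55, adjusted p = 0.0169 from limma) and was not called with the larger (-0.28, adjusted p = 0.614). FN1 was called with the smaller branch (-1.85, adjusted p = 0.00416) and not with the larger (-1.59, adjusted p = 0.126). VCAN was called with the larger branch (-1.97, adjusted p = 0.00519) and not with the smaller (-1.34, adjusted p = 0.0725). The branches were made from the arrays themselves, so the difference between them was not tested. THBS1 values were -0.93 to 1.23 in the larger branch and -2.28 to -0.22 in the smaller, where 6 GAPDH and actin control probe sets were low as well (mean -1.13 to -0.58, against -0.08 to 0.25).

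Probe sets of a gene mostly moved together. Of the 20 probe sets, 12 were lower in iUC, and 10.7% of all probe sets were. Both probe sets of THBS2, SPARC, SPARCL1 and VCAN were lower. SPARCL1 had log2 differences of -4.14 and -4.47, and its probe sets correlated at 0.990 over the 22 arrays. THBS2 had -3.60 and -1.99, so its mean hides a difference in size. THBS1 and FN1 were divided. One of 3 probe sets of THBS1 was lower (log2 difference -1.60, adjusted p = 0.0381 from limma over all probe sets), and the others had -0.95 and 0.22. The THBS1 probe set with 0.22 read 2.19 in normal bladder replicate 1 and -1.27 to -0.70 in the other normal samples. For FN1, 1 of 4 probe sets was lower (log2 difference -3.08, adjusted p = 0.00728), and the others had -1.04 to -1.38 with adjusted p values of 0.0687 to 0.298. In all 4, iUC replicate 12 was the highest tumor, at 3.65 to 5.02.

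**Figure D3:**
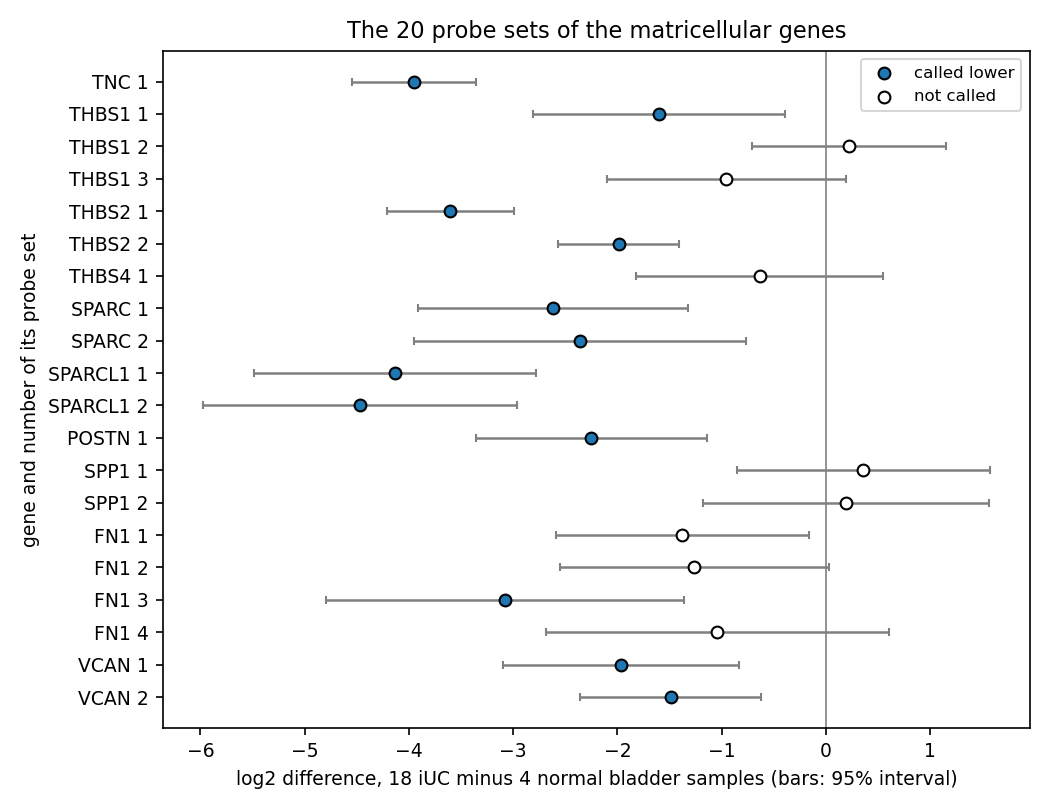
Log2 difference between 18 iUC and 4 normal bladder samples (x axis, with 95% intervals) for each of the 20 probe sets, numbered within a gene (y axis). Filled points were called lower by the same rule as genes. All probe sets of THBS2, SPARC, SPARCL1 and VCAN are filled, against 1 of 3 for THBS1 and 1 of 4 for FN1.

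The 4 normal samples had different profiles of matricellular genes. Replicate 1 was the highest of them for 5 genes, THBS1, THBS2, SPARC, SPP1 and VCAN. Replicate 4 was the highest for TNC, THBS4, SPARCL1 and POSTN, and replicate 3 for FN1. Replicate 2 was the lowest for 6 of the 10 genes and had the lowest mean of smooth muscle markers (3.10) and of fibroblast and matrix markers (1.08). Replicate 1 had the highest means of macrophage markers (1.69, against 0.12 to 0.49 in the others) and of the 3 measured neutrophil markers (3.08, against 0.58 to 1.22). Replicates 3 and 4 had higher means of endothelial markers (1.40 and 1.54) than replicates 1 and 2 (0.32 and 0.29). Their means of urothelium markers were lower (-2.02 and -3.56, against -0.68 and -0.32). The part of all these markers in the order of the normal samples was not tested.

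**Figure D4:**
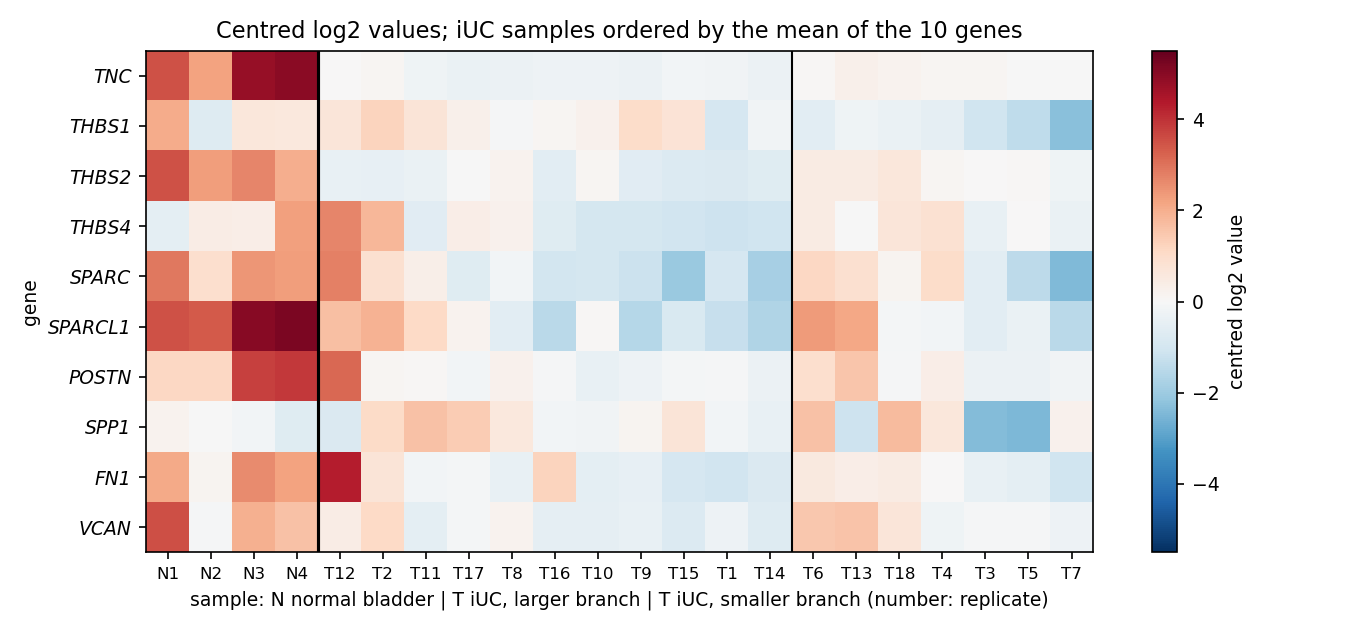
Centered log2 values (color) of the 10 matricellular genes (y axis) in all 22 samples (x axis). N marks normal bladder and T iUC, with the replicate number. The tumors of each branch are ordered by the mean of the 10 genes. Replicates 12 and 2 lead the larger branch and replicates 6 and 13 the smaller, and replicates 14 and 7 close them.

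Among the tumors, a few samples carried most of the high values. iUC replicate 12 had the highest value of the 18 tumors for THBS4 (2.70), SPARC (2.77), POSTN (3.15) and FN1 (4.31). Its mean over the 10 genes was 1.45, above every other tumor. The same sample had the highest mean of endothelial markers among tumors (1.41), a neutrophil marker mean of 1.73, and a TNC value of 0.01, inside the narrow range of the other tumors. iUC replicates 2 and 6 were each among the 3 highest tumors for 6 of the 10 genes, with means of 0.85 and 0.84, and replicate 13 was for 5. iUC replicates 6, 12, 2 and 13 also had the highest means of fibroblast and matrix markers among tumors (0.86, 0.69, 0.65 and 0.62). iUC replicate 8 came next (0.58), but its mean over the 10 genes was -0.0007. It was among the 3 highest tumors for none of them. At the other end, iUC replicate 7 was lowest for THBS1, SPARC and FN1, with a mean of -0.82. It also had the lowest mean of fibroblast and matrix markers (-1.01). Replicate 14 had the lowest SPARCL1 and a mean of -0.79. The part of other cells in these samples was not tested.

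Correlations between the genes were computed within each branch, 45 pairs in each. The counts and medians were not set against pairs of other genes in the same branch. Whether such correlations are particular to the matricellular genes was therefore not tested. In the larger branch (n = 11), 39 of 45 Pearson correlations were above 0, with a median of 0.449, and 8 pairs passed at an adjusted p of 0.05 or below by permutation test. These 8 joined SPARC with SPARCL1, POSTN and FN1, and THBS4 with SPARC, SPARCL1, POSTN, FN1 and VCAN. By Spearman's rho 2 pairs passed, THBS4 with FN1 and SPARC with SPARCL1. Without iUC replicate 12, 0 pairs passed (smallest adjusted p = 0.0654, with 8 pairs at an unadjusted permutation p of 0.05 or below). SPARC and SPARCL1 had r = 0.827 (permutation p = 0.000800, adjusted p = 0.0180) and rho = 0.845 (permutation p = 0.00176, adjusted p = 0.0396) in the larger branch. After leaving out the 2 samples farthest from the median, r was 0.691. Without iUC replicate 12 the pair still had r = 0.824 (permutation p = 0.00351, adjusted p = 0.0654). In the smaller branch (n = 7), all 45 correlations were above 0, with a median of 0.660, and 0 pairs passed (exact permutation test, smallest adjusted p = 0.0536, with 13 pairs at an unadjusted p of 0.05 or below). SPARC and SPARCL1 had r = 0.783 there (exact permutation p = 0.0393, adjusted p = 0.139) and rho = 0.857 (exact permutation p = 0.0238, adjusted p = 0.153).

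Genes whose pattern over the tumors was most like each matricellular gene were ranked by the lower of the 2 Pearson correlations, over 11 samples of the larger and 7 of the smaller branch. They are a description, since 15115 genes were searched. Most of them changed after quantile normalization. The ranking was not repeated without iUC replicate 12, the highest tumor for THBS4, SPARC, POSTN and FN1. Without that sample, r between POSTN and FN1 in the larger branch went from 0.90 to 0.31. SPARC was nearest to COL4A2, a chain of basement membrane collagen (r = 0.938 and 0.947), and to ECSCR, an endothelial surface protein (0.948 and 0.935). ECSCR and RAMP2, a receptor partner for adrenomedullin, were nearest to POSTN. FN1 was nearest to FBN1, the microfibril protein fibrillin 1 (0.897 and 0.907), and to COL1A1 of type I collagen (0.862 and 0.894). VCAN was nearest to FAP, a protease of activated fibroblasts (0.921 and 0.886), and to SEPTIN4. SPARCL1 was nearest to AQP1, a water channel of vessels (0.892 and 0.836), and again to SEPTIN4. THBS2 was nearest to BMP6, a secreted growth factor (0.869 and 0.918), and to VCAM1, an adhesion molecule of activated endothelium. THBS4 was nearest to ZEB2, a transcriptional repressor of mesenchymal cells (0.946 and 0.880), and to LOC491922. The closest genes of TNC (IGSF23 and MSN), THBS1 (TMEM176A and CHAF1A) and SPP1 (DRAM2 and RRAGD) had lower correlations, with the lower value at 0.637 to 0.797.

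Related genes were taken from lists. Of 27 measured genes of the same families and of other matricellular proteins, 8 were lower in iUC, 19 were not called and none was higher. Over all genes, 8.64% were lower and 3.68% higher. ECM1, a secreted matrix glycoprotein, fell 8.38-fold (log2 difference -3.07, standard error 0.35), and THBS3, another thrombospondin, fell 6.36-fold (log2 difference -2.67, standard error 0.26). SMOC2 of the SPARC family fell 5.47-fold (log2 standard error 0.37) and FBLN1, fibulin 1, fell 4.96-fold (log2 standard error 0.43). The other 4 were TGFBI, which shares the fasciclin domains of periostin, CCN2, FSTL1 and CCN3. The median log2 difference of the list was -0.10, against -1.99 for the 10 matricellular genes, so most of these relatives lay near 0. Centered values hold no level, so a gene expressed in neither tissue would lie near 0 as well.

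Receptors of these proteins went both ways. Of 25 measured receptor genes, 4 rose, 2 fell and 19 were not called, where 3.68% of all genes were higher and 8.64% lower. The share of receptors that fell was thus close to that of all genes. ITGA5, the alpha chain of the main fibronectin receptor, fell 5.25-fold (log2 difference -2.39, standard error 0.33, adjusted p = 1.17e-05 from limma). STAB1, a scavenger receptor that binds SPARC, fell 2.40-fold (standard error 0.21 on the log2 scale). ITGA3, an integrin chain of epithelial cells, rose 2.95-fold (standard error 0.31), and ITGB6, the epithelial partner of ITGAV, rose 2.53-fold (standard error 0.30). SDC3 rose 2.09-fold (log2 difference 1.065, standard error 0.40, adjusted p = 0.0423 from limma). EGFR rose 2.05-fold (log2 difference 1.034, standard error 0.28, adjusted p = 0.0078 from limma). Both lay close to the fold change threshold. CD44, the receptor of osteopontin and hyaluronan, had a log2 difference of -0.87 (adjusted p = 0.172), CD36 had -0.96 (adjusted p = 0.0848) and CD47 had -0.26 (adjusted p = 0.628).

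Enzymes and TGF-beta genes mostly did not pass the test. Of 21 measured enzymes and binding partners, 1 rose, 0 fell and 20 were not called, where 3.68% of all genes were higher and 8.64% lower. The 1 was ACP5, an acid phosphatase of macrophages and osteoclasts that can act on osteopontin, which rose 2.57-fold (log2 difference 1.36, standard error 0.45, adjusted p = 0.0250 from limma). Without normal bladder replicate 3 or 4, 0 of the 21 were called. Of 17 measured TGF-beta ligands, receptors and regulators, TGFB1 was lower (2.05-fold, log2 difference -1.04, standard error 0.24), none was higher and 16 did not pass. TGFB1 lay close to the fold change threshold, and it was not called after quantile normalization, after scaling to the 75th percentile, or without normal bladder replicate 3 or iUC replicate 14. The median log2 differences of these lists were -0.07 and 0.01.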

How the data were processed

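Expression was measured in 18 canine iUC and 4 normal bladder samples. The authors used GeneSpring GX, and the values they deposited for 43035 probe sets are taken as log2, the scale on which that program works. Each probe set is centered on its median over 22 arrays, since all medians lie within 1e-06 of 0. The sources used here do not name the summarization or how arrays were normalized to each other. Control probe sets (111) were left out. A gene's value is the mean of its probe sets with 1 gene symbol (29254 probe sets; 439 had several symbols and 13231 none). Probe positions and sequences were not used here.

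Groups were compared in R 4.3.3 by the moderated linear models of limma 3.58.1 without covariates. The models take the same variance for both groups, and no alternative allowed unequal variances. Where normal samples varied more than tumors, as for TNC, THBS2, POSTN and VCAN, standard errors and p values may be too small. Benjamini-Hochberg adjustment ran over 15115 genes or 42924 probe sets, with the methods' thresholds. No filter on low values was applied, because centered values hold no level, so all 10 genes and 20 probe sets were tested. Branches came from Ward linkage on Euclidean distances. Correlations used 1e+05 permutations for 11 samples and all permutations for 7. The code was tested on simulated data. Figures were drawn with matplotlib 3.10.9.

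The genes and lists were chosen with earlier results of these data known. All 10 genes are named, up to 4 called genes of each list in each direction (remaining called genes without values), and the 2 most similar genes of each. Alternatives were array weights, quantile normalization, the 75th percentile as scale, the median of a gene's probe sets, leaving out each sample, normal replicates 3 and 4 averaged, the replicate number or label ending as a block, each branch alone, and an unpaired test without moderation. Precision is limited by the 4 normal samples.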

Additional observations from a re-analysis of the deposited data

Results flagged for a closer look

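In the THBS1 probe set whose log2 difference was 0.22, normal bladder replicate 1 lay far from the other 3 normal samples (2.19 against -1.27 to -0.70). The gap was 0.835 of the range of the 4 samples, above Dixon's 95% critical value. It was the only one of 27 values tested in this way, and chance flags about 1 in 20 groups.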

How the results depend on the processing

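TNC and THBS2 were lower in iUC under all 33 alternatives (log2 differences of -4.70 to -2.64 and -3.68 to -2.02), and SPARCL1 under all but 1 (-4.95 to -2.84 over all of them), the label ending, where its log2 difference was -3.52 (adjusted p = 0.222). No called gene changed direction. The labels' replicate numbers name different dogs, and same-numbered samples did not deviate together (correlations of -0.17 to 0.13), so the replicate block pairs nothing by design. With the replicate block, 3 of the 10 genes were lower (against 7), 2 of 20 probe sets (against 12), 349 genes lower (against 1306) and 215 higher (against 556), and 1, 1, 0 and 0 genes were called among family relatives, receptors, enzymes and TGF-beta genes (against 8, 6, 1 and 1). With quantile normalization these counts were 3, 5, 512, 262, 5, 3, 0 and 0. When the label ending entered as a block, they were 3, 5, 389, 15, 3, 3 and 4, with the TGF-beta count still at 1. Against the smaller branch, 2623 genes were lower and 1082 higher, with 2 enzymes and 3 TGF-beta genes called. With normal replicates 3 and 4 averaged, 312 genes were higher and 0 enzymes were called. With array weights, 1065 genes were higher and 3 TGF-beta genes were called, and with the 75th percentile 0 were. By an unpaired test with equal variances and no moderation, 7 of the 10 genes, 1357 genes lower and 624 higher passed without adjustment, and 6, 1280 and 522 after Benjamini-Hochberg adjustment. The cause of these shifts was not tested. Leaving out single samples gave 5 to 7 of the 10 genes and 8 to 14 of 20 probe sets lower, 967 to 1495 genes lower, 298 to 716 higher, 6 to 8 family relatives, 5 to 8 receptors, 0 to 2 enzymes and 0 to 3 TGF-beta genes, and no gene of the 10 higher. The lowest counts of higher genes came without normal bladder replicate 3 (330) or 4 (298). FN1 kept its call under 8 alternatives. Of pairs of genes, 8 passed in the larger branch, 0 without iUC replicate 12 (a choice made after seeing the data), and in the smaller branch 0 passed, or 2 after quantile normalization. Of the 20 most similar genes, 8 were shared with those after quantile normalization.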
